A study of Mus musculus with 13 samples.

Results

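Nodal, Lefty1, Lefty2, Eomes, Mixl1, Gsc, T, Foxh1, Sox17 and Cer1 are genes of Nodal signalling and of the mesendoderm. Embryonic cells switch such genes on through SMAD2/3, while Foxh1 encodes a partner of SMAD2/3. All 10 were followed through 12 lists of ChIP-seq peaks (chromatin immunoprecipitation and sequencing) from gonadotrope cells. The 10 genes were chosen by name, and a peak was counted for a gene when the deposited annotation gave that gene the nearest transcription start, at 100 kb or less. By this rule 58 of 538751 peaks belonged to the 10 genes. None of the 58 was a SMAD2/3 peak. The question was whether SMAD2/3 targets known from embryos are occupied in a pituitary cell after activin.

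The cells were LβT2, an established mouse line of the gonadotrope type, the pituitary cell that makes luteinizing and follicle-stimulating hormone. Every library, vehicle libraries included, came from cells stably transduced with a lentivirus that carries constitutive GFP and a doxycycline-inducible FLAG-tagged mouse FoxL2, a forkhead factor, and all had 48 h of doxycycline. The signal called FOXL2 here is therefore that of the induced tagged protein. After 2 h in medium with 2% serum the cells received vehicle or activin A at 1 nM for 1 h. The 3 antibodies recognised SMAD2/3, FLAG and H3K27ac, which is histone H3 acetylated at lysine 27 and marks active regulatory DNA. For each antibody there were 2 vehicle libraries and 2 activin libraries, and a library came from 3 pooled plates of the transduced cells. The labels do not say that the duplicates were separate cultures, so the p-values cover the spread between these libraries only. A Protein-A control sample was not analysed here.

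Nodal is a secreted ligand of the TGF-β family. With a co-receptor it uses the same type I and type II receptors as activin, and both ligands lead to phosphorylated SMAD2 and SMAD3. In the early embryo the SMADs bind DNA with partners such as FOXH1, a forkhead protein, and EOMES, a T-box protein. Nodal itself is a target of its own pathway, and Lefty1, Lefty2 and Cer1 encode secreted antagonists that limit it. Eomes, Mixl1, Gsc, T and Sox17 encode transcription factors of the primitive streak, mesoderm and endoderm.

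The gonadotrope label was checked by acetylation at marker genes. Of 10 gonadotrope markers 8 had an H3K27ac peak assigned to them within 100 kb in both libraries of a treatment. The share of all protein-coding genes was 41.9% in both vehicle and 40.9% in both activin libraries. For 5 of them (Cga, Lhb, Gnrhr, Nr5a1 and Gata2) such a peak covered the listed start, against 15.1% of all genes. By the annotation's promoter class the count was 3 of 10 (Lhb, Nr5a1 and Egr1), near the 26.4% of all genes. Fshb, which encodes the follicle-stimulating hormone β subunit, and Lhx3 had none by this rule. Of 8 markers of pluripotent embryonic cells 2 (Zfp42 and Lin28a) had such a peak within 100 kb and 0 had it over the start or in the promoter class. Of 8 markers of other pituitary cells 3 (Pomc, Ghrhr and Prl) had a peak and 0 had it over the start or in the promoter class. Both start measures, here and below, can count only genes that the annotation named for some peak. It named 9 of the 10 gonadotrope, 5 of the 8 pluripotency and 6 of the 8 other pituitary markers. The rest could not count, whatever their acetylation, and the shares of all genes were taken in the same way. SMAD2/3 gave lists of 605 and 144 peaks for vehicle and of 7784 and 5970 peaks for activin. The FOXL2 lists held 83834 to 97701 peaks and the H3K27ac lists 38995 to 41763. The depth reached is unknown for every list, so longer lists and deeper libraries cannot be told apart.

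Promoter sequence was available in RefSeq (GRCm38.p6) for 5 of the 10 genes, Nodal, Eomes, Gsc, T and Cer1, as the 250 bases before the RefSeq start. None of the 12 lists had a peak on any of these 5 windows. The windows were searched on both strands for 7 motifs, each counted by itself, so that matches of different motifs may overlap. CAGAC is the core SMAD site and occurs in 42.2% of all 32851 promoter windows of this length. GGCGC, a GC-rich SMAD site, occurs in 32.0% of them, and the palindromic SMAD element GTCTAGAC in 0.167%. The forkhead letters TAAACA occur in 12% of all windows, and the longer forkhead motif TGTTTAC in 3.17%. The FOXH1 motif AATNCACA occurs in 3.18% of all windows, and the T-box motif TCACACC in 3.33%. The 3 windows with letters of a SMAD motif are shown because they carry such letters and had no SMAD2/3 peak. Each reads 5′ to 3′ on the strand of the gene, and capitals mark the SMAD motif on either strand. They lie at chr12:104473237-104473486 (minus strand), chr17:8434173-8434422 (plus strand) and chr4:82885152-82885401 (minus strand).
Gsc: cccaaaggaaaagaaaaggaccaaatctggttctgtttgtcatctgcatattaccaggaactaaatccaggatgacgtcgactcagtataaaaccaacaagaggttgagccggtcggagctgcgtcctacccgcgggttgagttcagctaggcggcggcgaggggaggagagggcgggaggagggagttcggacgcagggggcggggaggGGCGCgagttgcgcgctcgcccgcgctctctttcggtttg
T: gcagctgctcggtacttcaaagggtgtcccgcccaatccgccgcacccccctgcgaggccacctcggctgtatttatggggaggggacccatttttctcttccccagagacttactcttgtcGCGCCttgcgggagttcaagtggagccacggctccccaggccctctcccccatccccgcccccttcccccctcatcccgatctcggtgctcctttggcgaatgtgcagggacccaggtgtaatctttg
Cer1: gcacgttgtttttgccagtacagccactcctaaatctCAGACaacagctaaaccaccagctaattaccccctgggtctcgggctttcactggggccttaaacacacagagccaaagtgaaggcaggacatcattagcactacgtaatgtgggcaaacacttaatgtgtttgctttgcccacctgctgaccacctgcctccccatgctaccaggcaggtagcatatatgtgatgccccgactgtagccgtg
The Gsc window held GGCGC with its first base 40 bases before the start, and the T window held it on the other strand 128 bases before the start. The Cer1 window held the core SMAD site 213 bases before the start and the shorter forkhead letters 153 bases before it. The Nodal and Eomes windows held none of the 7 motifs. A match describes letters only, and its absence says only that the letters are not in this window.

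No SMAD2/3 peak was assigned to any of the 10 genes in any library. The count was 0 in each of the 4 SMAD2/3 lists. Over all 21887 protein-coding genes, 7.45% had a SMAD2/3 peak in both activin libraries by the same rule, which for 10 genes comes to 0.745 genes. A count of 0 of 10 is thus near the background, and nothing particular to the 10 genes is read from it. A peak in both vehicle libraries was found at 0.242% of all genes and a peak in all 4 at 0.233%, and again at 0 of the 10. Of all 8602 SMAD2/3 regions (peaks of the 4 libraries of a target, merged where they overlapped by 1 bp or more), 54.0% had a peak in both activin libraries and no vehicle library, 0.0233% the reverse, and 1.53% a peak in all 4. FOXL2 had 9 and 12 peaks assigned to the 10 genes in vehicle 1 and 2, and 10 and 9 in activin 1 and 2. The FOXL2 mean was 10.5 ± 2.12 (SD, n = 2) for vehicle against 9.5 ± 0.707 (SD, n = 2) for activin, so activin minus vehicle was -1 peak (p = 1 by an exact permutation test, two-sided, which has 6 labellings of the 4 libraries). Without vehicle 2 this difference was 0.5. H3K27ac had 4 and 5 peaks for vehicle and 5 and 4 for activin, 4.5 ± 0.707 (SD, n = 2) in each treatment (exact permutation p = 1). The vehicle and activin counts overlapped for both targets, and 2 against 2 libraries cannot give a p under 0.33.

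**Figure D1:**
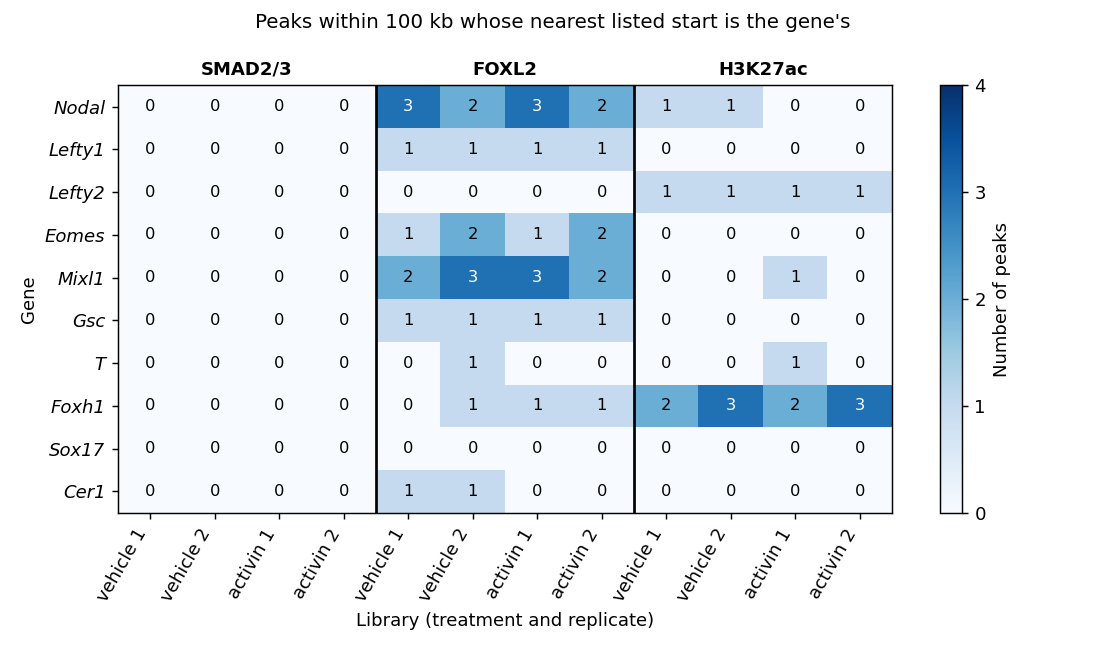
Number of peaks assigned to each of the 10 genes (rows) in each of the 12 libraries (columns, grouped by target, with treatment and replicate below), where the colour and the printed digit give the same count. The SMAD2/3 columns hold 0 throughout, Nodal and Mixl1 reach 3 FOXL2 peaks in a library, and Foxh1 has 2 or 3 H3K27ac peaks in each library.

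The deposited assignment goes to the nearest start only, so SMAD2/3 peaks around the 10 genes can carry a neighbour's name. SMAD2/3 regions within 100 kb of the RefSeq gene were therefore listed whatever gene they were assigned to, an alternative added after the data were seen. There were 9 such regions at 4 genes, Lefty1, Mixl1, Gsc and Foxh1. Of these, 5 had a peak in a single library, and 4 had one in both activin libraries, at Lefty1, Gsc and Foxh1. By this wider rule 3 of 10 genes had a SMAD2/3 region of both activin libraries, against 34.2% of all protein-coding genes, so this count too was near the background. From the listed starts the number of SMAD2/3 peaks within 100 kb was 1 and 0 for vehicle against 9 and 4 for activin (difference 6, exact permutation p = 0.33). Both activin counts exceeded both vehicle counts, as did the list lengths themselves. Counted in the same way, FOXL2 had 54 and 66 peaks for vehicle and 49 and 61 for activin. H3K27ac had 60 and 71 peaks for vehicle and 67 and 62 for activin. Most of these peaks were assigned to neighbouring genes, so the FOXL2 and H3K27ac counts by nearest start leave them out. This count by position was not made over all genes.

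Foxh1, which encodes the forkhead partner of SMAD2/3 in the embryo, had the nearest of these regions. The SMAD2/3 region at chr15:76684261-76684753 (GRCm38) lay 12.6 kb outside the Foxh1 gene, in intron 1 of the neighbouring gene Ppp1r16a, a regulatory subunit gene of protein phosphatase. Its fold enrichment, a ratio over background made by the authors, was 3.61 in vehicle 1, no peak in vehicle 2, 11.2 in activin 1 and 9.68 in activin 2. Its place in each list, with 1 for the peak of highest −log10 q, was 516 of 605 in vehicle 1, 559 of 7784 in activin 1 and 569 of 5970 in activin 2. In the activin lists it thus stood among the stronger peaks, at percentiles 92.8 and 90.5. FOXL2 was present there in all 4 libraries at chr15:76684253-76684933, with folds of 8.36 and 10.2 with vehicle against 9.02 and 8.44 with activin. These FOXL2 values overlapped between treatments. An H3K27ac region of 9978 bp, chr15:76677661-76687638, covered the site in all 4 libraries, with folds of 5.69 and 6.11 (vehicle 1 and 2) and 7.87 and 7.38 (activin 1 and 2). The strongest H3K27ac peak of that region stood at places 4562 and 2841 for vehicle and 933 and 1210 for activin, so both activin values were higher. Of all H3K27ac regions in all 4 libraries, 27.5% stood higher in both activin lists and 30.9% in both vehicle lists. Foxh1 and Ppp1r16a lie side by side, and the files do not say which of them the site acts on.

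Lefty1, which encodes a secreted antagonist of Nodal, had 2 SMAD2/3 regions of both activin libraries on its far side from Lefty2. The region at chr1:181009523-181009796 lay 71.1 kb from the gene, with folds of 5.77 and 5.82 with activin and places 2208 and 1860. It lay on H3K27ac in all 4 libraries and on no FOXL2 peak. The region at chr1:181020945-181021203 lay 82.5 kb away, with folds of 4.85 and 7.76 with activin, and overlapped FOXL2 and H3K27ac in all 4 libraries. The annotation classed it with the promoter of another gene. Another region between them, chr1:181015977-181016190, had a peak in activin 1 only, with a fold of 3.97. All 3 fell in 1 acetylated block of 15561 bp, chr1:181006809-181022369, whose folds were 7.99 and 7.7 with vehicle against 8.1 and 7.31 with activin. The acetylation overlapped between treatments. FOXL2 at the site 82.5 kb away had folds of 8.23 and 5.98 with vehicle against 4.61 and 3.29 with activin. FOXL2 at chr1:181015977-181016190 had 5.32 and 5.04 with vehicle against 3.01 and 3.88 with activin. Both vehicle folds were above both activin folds at each site. Of FOXL2 regions of all 4 libraries, 27.2% showed this order and 26.3% the opposite.

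Gsc, which encodes the homeodomain protein goosecoid, had 1 SMAD2/3 region of both activin libraries, 58 kb away at chr12:104531223-104531484. Its folds with activin were 4.99 and 6.48 and its places 6253 and 3146. It overlapped no FOXL2 peak and lay on H3K27ac in all 4 libraries, at folds of 4.58 and 4.42 (vehicle 1 and 2) and 5.49 and 5.4 (activin 1 and 2). Of all H3K27ac regions of all 4 libraries, 26.1% likewise had both activin folds above both vehicle folds, so this order is not rare. Activin 1 alone gave 2 further regions near Gsc, 13.2 kb and 19.1 kb away, with folds of 4.55 and 4.08. Activin 1 alone also gave 1 region 55.7 kb from Mixl1, with a fold of 4.41, and 1 region 27.7 kb from Foxh1, with a fold of 3.66. These 4 regions had no peak in activin 2. Of the 4 regions of both activin libraries near the 10 genes, 4 lay on H3K27ac, 2 on FOXL2 and 2 on both in both activin libraries. The share on both was 61.7% over all 5162 SMAD2/3 regions of both activin libraries.

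Nodal, Eomes, T, Sox17, Cer1 and Lefty2 had no SMAD2/3 region of any library within 100 kb of the gene. The nearest SMAD2/3 region of both activin libraries lay 345 kb from Nodal, 870 kb from Eomes, 228 kb from T, 499 kb from Sox17 and 418 kb from Cer1. For Lefty2 it lay 110 kb away and for Mixl1 312 kb away. Eomes was the farthest of the 10, and 85.7% of protein-coding genes had such a region nearer than Eomes did. Foxh1 was the nearest, and 12.5% of genes had one nearer. Over the 10 genes the median distance was 270 kb (quartiles 80.9 and 400 kb), and over 21631 protein-coding genes it was 198 kb (quartiles 57.9 and 520 kb). The median of the 10 genes lay between the quartiles of all genes, which include the 10.

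Nodal, Lefty1 and Eomes each had a FOXL2 region that ranked high in all 4 FOXL2 lists. Of the 12 FOXL2 regions assigned to the 10 genes, 5 had a peak in all 4 libraries, as did 46.8% of all FOXL2 regions, 1 in both vehicle libraries only and 6 in other combinations. By gene, 5 of 10 (Nodal, Lefty1, Eomes, Mixl1 and Gsc) had FOXL2 in all 4 libraries, against 37.5% of all protein-coding genes. In both activin libraries 6 of 10 had it (the same 5 and Foxh1), against 42.7%, and in both vehicle libraries 6 of 10 (the 5 and Cer1), against 40.1%. These counts are near the background. A region was called strong when its percentile by −log10 q averaged at least 90 over the 4 lists, a limit chosen after the values were seen and passed by 13.3% of FOXL2 regions of all 4 libraries. Strong regions were assigned to 3 of 10 genes, against 9.78% of all protein-coding genes. The 12 regions were classed as intergenic in 8 cases, intronic in 2, exonic in 1 and at a transcription end in 1, and none as promoter.

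Nodal (ENSMUSG00000037171, chr10:61417972-61425338), the ligand gene, had its FOXL2 region at -8.05 kb, where negative distances are upstream, at chr10:61409521-61410313 between genes. Its strongest peak had folds of 39.0 and 43.9 for vehicle and 36.5 and 35.9 for activin. The places were 3449 and 1286 with vehicle against 4169 and 3248 with activin. Both vehicle folds were above both activin folds, a pattern found in 27.2% of the 58444 FOXL2 regions of all 4 libraries, while the places overlapped. The 4 summits fell within 11 bp of each other. A weaker H3K27ac region, chr10:61409126-61409875, overlapped this FOXL2 region and was vehicle-only, meaning a peak in both vehicle libraries and in neither activin library. Its folds were 2.8 and 3.23 and its −log10 q values 1.66 and 2.88, where the smallest value listed in the H3K27ac lists was 1 to 1.01. Of all H3K27ac regions 6.79% were vehicle-only and 5.84% activin-only. A second FOXL2 region of Nodal, at 10.6 kb, had folds of 5.74, 5.1 and 3.75 in vehicle 1, vehicle 2 and activin 1 and no peak in activin 2.

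Lefty1 (ENSMUSG00000038793, chr1:180935022-180938401) had a single FOXL2 region assigned to it, at -10.3 kb, chr1:180926378-180926817, between genes. The folds were 34.5 and 36.9 (vehicle 1 and 2) and 22.5 and 25 (activin 1 and 2). The places were 3755 and 1711 for vehicle and 10807 and 6682 for activin. Both vehicle libraries stood above both activin libraries by fold and by place. Among FOXL2 regions of all 4 libraries, 37.5% showed this order by place and 27.2% by fold, while 23.4% showed the opposite order by place, so neither is rare in these lists. The activin FOXL2 lists were also longer than the vehicle lists, and the part of list length in the difference was not tested. The region overlapped no H3K27ac peak in any library.

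Eomes (ENSMUSG00000032446, chr9:118478186-118486132), the T-box gene, had its strong FOXL2 region downstream of the gene, at 11.7 kb, chr9:118490275-118490820. The folds were 35.0 and 44.6 with vehicle against 46.2 and 36.0 with activin. The places were 1684 and 428 (vehicle 1 and 2) and 1779 and 1478 (activin 1 and 2). Its mean percentile of 98.5 was the highest among the 12 FOXL2 regions, with 96.7 for Nodal and 93.9 for Lefty1. The vehicle and activin values overlapped. No H3K27ac peak overlapped it in any library. A weaker FOXL2 region of Eomes at 10.0 kb had folds of 3.77 in vehicle 2 and 3.12 in activin 2 and no peak in the other 2 libraries.

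Mixl1 and Gsc, both homeobox genes, had assigned FOXL2 regions near the middle of the lists. Mixl1 (ENSMUSG00000026497, chr1:180693043-180697034, minus strand) had one at 7.79 kb, chr1:180689092-180689387, at the annotated transcription end of the neighbouring gene Lin9. Its folds were 5.82 and 7.56 for vehicle and 7.62 and 7.74 for activin, and its mean percentile was 49.9. Its places were 58306 and 36082 with vehicle against 44759 and 41520 with activin. Both activin folds were above both vehicle folds, as for 26.3% of FOXL2 regions of all 4 libraries, while the places overlapped. Gsc (ENSMUSG00000021095, chr12:104471209-104473236, minus strand) had one at 14.3 kb, chr12:104458867-104459185, with folds of 6.9 and 8.19 with vehicle against 10.2 and 6.52 with activin and a mean percentile of 46.7. The Gsc values overlapped between treatments. These 2 percentiles lay well inside the lists, and the next value above them among the FOXL2 regions assigned to the 10 genes was the 93.9 of Lefty1. FOXL2 regions assigned to other genes stood between. The one at the SMAD2/3 region 55.7 kb from Mixl1 had percentiles of 72.9 to 87.2 over the 4 libraries. The one at the SMAD2/3 region 19.1 kb from Gsc had 68.0 to 77.9.

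**Figure D2:**
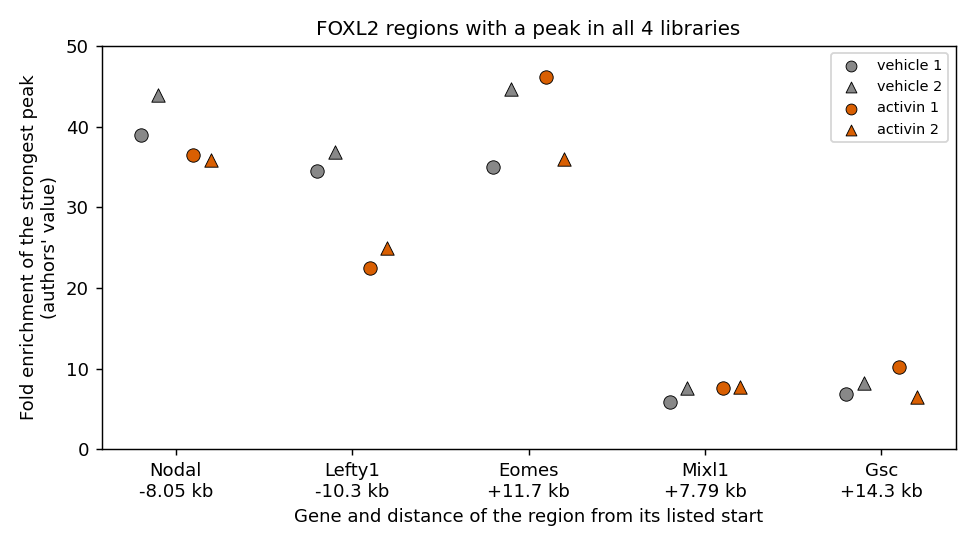
Fold enrichment (authors' ratio, strongest peak of the region, linear axis from 0) of the 5 FOXL2 regions assigned to the 10 genes with a peak in all 4 libraries. There is 1 point per library, grey for vehicle and orange for activin, circles for replicate 1 and triangles for replicate 2. Nodal, Lefty1 and Eomes lie between 22.5 and 46.2, Mixl1 and Gsc between 5.82 and 10.2, and the treatments separate most clearly at Lefty1.

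The other FOXL2 regions assigned to the 10 genes were weak or incomplete. Cer1 (ENSMUSG00000038192), a Nodal and BMP antagonist gene, had the single vehicle-only FOXL2 region of the 10 genes, at -33.3 kb, chr4:82918335-82918622, in an intron of the neighbouring gene Frem1. Its folds were 5.51 and 3.63 and its places 68066 and 81467, late in both vehicle lists. Of all FOXL2 regions 3.22% were vehicle-only and 8.95% activin-only, and none of the 12 was activin-only. T (ENSMUSG00000062327), which encodes brachyury, had a FOXL2 peak in vehicle 2 only, at 8.84 kb with a fold of 4.17. Mixl1 had 2 further regions, each in 3 libraries, at 6.84 kb with folds of 2.66 to 5.19 and at -11.5 kb with folds of 5.42 to 7.69. Foxh1 had one at -8.63 kb, with folds of 3.66 in vehicle 2, 4.82 in activin 1 and 4.84 in activin 2. Lefty2 and Sox17 had no FOXL2 peak assigned to them, although the strong region assigned to Lefty1 also lies within 100 kb of Lefty2.

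**Figure D3:**
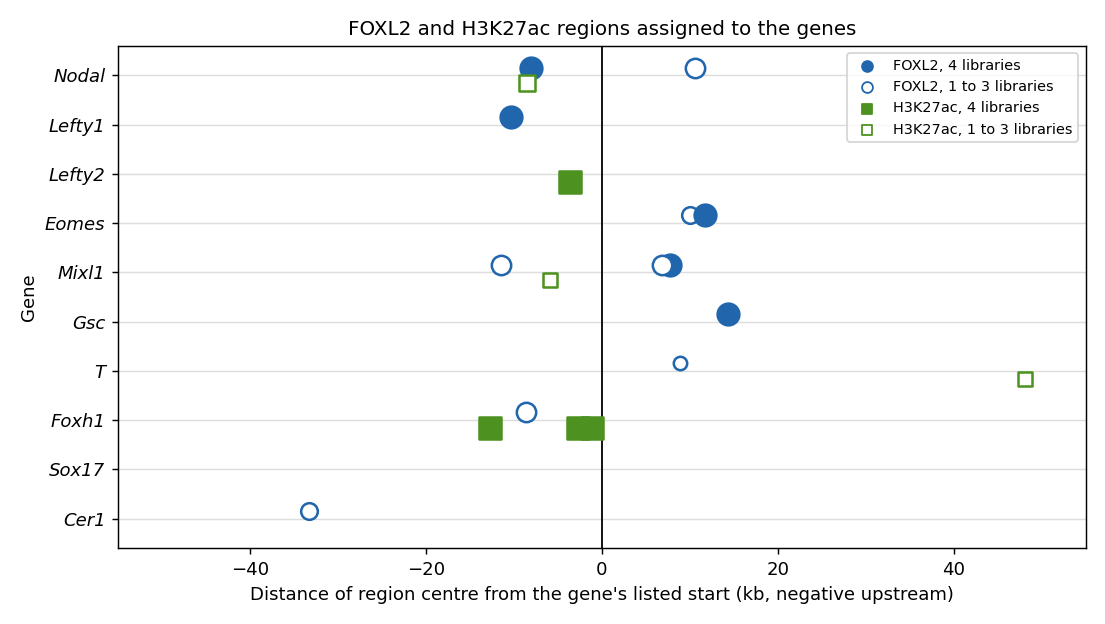
Position of each assigned FOXL2 region (blue circles) and H3K27ac region (green squares) relative to the gene's listed start in kb, negative upstream. A filled symbol has a peak in all 4 libraries and symbol size grows with the number of libraries. The strong FOXL2 regions lie at -8.05 kb (Nodal), -10.3 kb (Lefty1) and 11.7 kb (Eomes), and Sox17 has no assigned region.

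By nearest start within 100 kb, H3K27ac in both libraries of a treatment was assigned to 3 of the 10 genes, Nodal, Lefty2 and Foxh1. The acetylated regions near Lefty1 and Gsc described above were assigned to other genes and are not counted. In both vehicle libraries it was found at these 3, against 41.9% of all protein-coding genes, and in both activin libraries at 2, Lefty2 and Foxh1, against 40.9%. In all 4 libraries it was found at the same 2, against 38.6%. Of the 7 H3K27ac regions assigned to the 10 genes 4 had a peak in all 4 libraries, against 45.9% of all H3K27ac regions. No listed start of the 10 genes lay in an H3K27ac peak in both libraries of a treatment, against 15.1% of all protein-coding genes. Within 1000 bp of the start the count was 1 (Foxh1) against 29.7%, and of peaks classed as promoter it was 0 against 26.4%. The listed start is a single position per gene, and for 5 of the 9 genes named in the tables it lay over 100 bp from the RefSeq start, at most 1849 bp. Counted on the RefSeq gene and 1000 bp either side, H3K27ac was again present at 1 of 10 genes, Foxh1.

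Foxh1 (ENSMUSG00000033837, chr15:76667829-76671614, minus strand) had the strongest of the H3K27ac regions assigned to the 10 genes. The region at chr15:76670684-76671465 lies inside the Foxh1 gene at its 5′ end and is classed by the annotation as the promoter of Ppp1r16a, which RefSeq places directly beside it. Its folds were 6.57 and 5.95 (vehicle 1 and 2) and 5.67 and 5.74 (activin 1 and 2), and its places 1770 and 2031 for vehicle and 2974 and 3061 for activin. The adjoining region at chr15:76671864-76673346, in intron 1 of Ppp1r16a, had folds of 4.79 and 3.79 with vehicle against 5.07 and 5.74 with activin, and places 7289 and 11367 (vehicle 1 and 2) and 5317 and 3448 (activin 1 and 2). The first region thus stood higher with vehicle and the second higher with activin, in both libraries each. By place, 30.9% of H3K27ac regions of all 4 libraries showed the first order and 27.5% the second, so neither is rare. The differences rest on 2 against 2 libraries, and acetylation of the 2 genes cannot be told apart here. The H3K27ac peaks of the 9978 bp region beyond them were assigned in part to Foxh1 and in part to Ppp1r16a.

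Lefty2 (ENSMUSG00000066652, chr1:180893108-180899107), the paralog of Lefty1, had 1 H3K27ac region in all 4 libraries, at -3.66 kb, chr1:180890205-180891397, between genes. Its folds were 3.13 and 3.27 for vehicle and 3.92 and 3.86 for activin, and its places 32357 and 22058 with vehicle against 15799 and 19421 with activin. Both activin libraries stood above both vehicle libraries by fold and by place, as for 26.1% (fold) and 27.5% (place) of all H3K27ac regions of all 4 libraries. Its mean percentile was 44.8. No FOXL2 or SMAD2/3 peak overlapped it. Mixl1 at -5.92 kb and T at 48.1 kb each had an H3K27ac peak in activin 1 only, with folds of 2.77 and 2.66. Lefty1, Eomes, Gsc, Sox17 and Cer1 had no H3K27ac peak assigned to them. Sox17, which encodes an endoderm factor, was named in none of the 12 tables (RefSeq gene at chr1:4490928-4497426).

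The 10 genes are short, 2028 to 8074 bp with a median of 4996 bp, while the median of all protein-coding genes is 17169 bp. On the gene and 1000 bp either side, in both libraries of a treatment, SMAD2/3 was found at 0 of the 10 and at 8.58% of all protein-coding genes, but at 0.935% of the 6953 genes no longer than the longest of the 10. FOXL2 was found at 0 of the 10, at 44.3% of all genes and at 11.9% of the short genes. H3K27ac was found at 1 of the 10, at 54.0% of all genes and at 32.6% of the short genes.

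The strong FOXL2 regions of Nodal, Lefty1 and Eomes overlapped no SMAD2/3 peak and had no H3K27ac peak in the activin libraries. Over the whole genome 20.8% of FOXL2 regions of all 4 libraries overlapped H3K27ac in both activin libraries and 6.16% overlapped SMAD2/3 in both. There were 7794 strong FOXL2 regions, of which 30.1% overlapped H3K27ac and 18.0% overlapped SMAD2/3 in both activin libraries. Among the 2344 with H3K27ac in both activin libraries the share was 45.7%. Among the 4129 without any H3K27ac peak, as at Lefty1 and Eomes, it was 4.14%. Among the 5450 without H3K27ac in both activin libraries, as at all 3 genes, it was 6.11%. Against that share, no SMAD2/3 at the 3 regions is near the background for strong FOXL2 regions without acetylation.

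**Figure D4:**
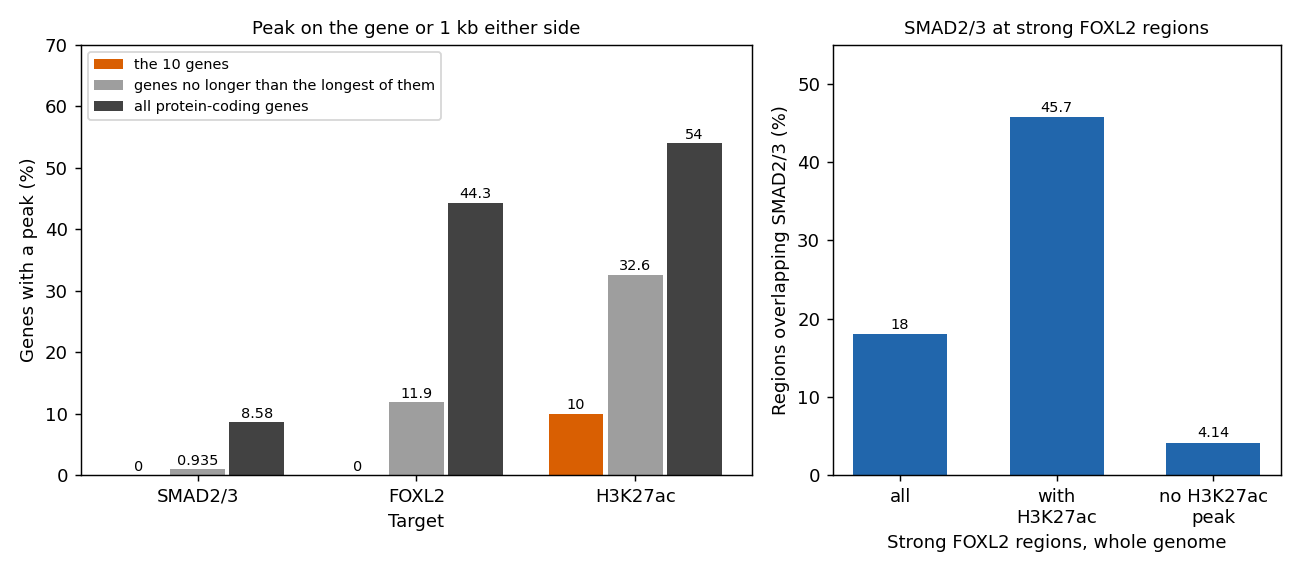
Left, percent of the 10 genes (orange), of genes no longer than the longest of them (light grey) and of all protein-coding genes (dark grey) with a peak on the gene or within 1 kb in both libraries of a treatment, by target. Right, percent of strong FOXL2 regions of the whole genome that overlap SMAD2/3 in both activin libraries, for all, for those with H3K27ac in both activin libraries (45.7%) and for those with no H3K27ac peak (4.14%).

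Other genes of the same biology were read from lists written out by name. Of 20 other Nodal pathway genes 2 had a SMAD2/3 peak in both activin libraries, against 7.45% of all protein-coding genes, so the count is near the background. Smad2 and Smad3 encode the signal transducers that activin also uses. Smad2 had it at -13.7 kb with folds of 4.02 and 3.58, and Smad3 at 48.5 kb with folds of 4.68 and 4.47. An H3K27ac peak of the promoter class was found at 9 of the 20, against 26.4% of all protein-coding genes. The 9 were the receptor genes Acvr1b, Acvr2a and Acvr2b, the SMAD genes Smad2, Smad3 and Smad4, and Drap1, Trim33 and Ppm1a. The annotation named the receptor gene Acvr1c for no peak, so its promoter class could not be counted by this rule. It named 13 of the 20 genes. An H3K27ac peak covered the listed start of 0 of the 20, so the 2 measures of acetylation at the start differ for this list. FOXL2 was present in all 4 libraries at 11 of the 20, against 37.5% of all protein-coding genes.

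Of 19 other mesendoderm genes 2 had SMAD2/3 in both activin libraries, against 7.45% of all protein-coding genes, which is again near the background. Both are GATA transcription factor genes. Gata4 had it at -12.8 kb with folds of 10.5 and 8.01, and Gata6 at -71.8 kb with folds of 7.65 and 5.42. H3K27ac of the promoter class was found at 2 of the 19, Gata4 and Tbx6, against 26.4% of all genes, and FOXL2 in all 4 libraries at 8, against 37.5%.

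Of 9 feedback inhibitors of SMAD signalling 2 had SMAD2/3 in both activin libraries, against 7.45% of all protein-coding genes. Smad6 had it at -0.019 kb with folds of 8.06 and 9.58, and Ldlrad4, an inhibitor of SMAD2/3 activation, at -2.71 kb with folds of 15.8 and 13.3. Of the 10 gonadotrope markers 6 had it, against the same share, Cga, Gnrhr, Lhb, Nr5a1, Pitx1 and Isl1. Cga, the common gonadotropin α subunit, had folds of 13.7 and 11.2 at -0.189 kb, and Gnrhr, the receptor of gonadotropin-releasing hormone, 10.6 and 9.46 at -0.202 kb. Of the 8 pluripotency markers 0 had it, and of the 8 markers of other pituitary cells 1 had it. That gene was Ghrhr, the receptor of growth hormone-releasing hormone, whose SMAD2/3 peak at 12.6 kb had folds of 23.7 and 22.2, above those of Cga. Ghrhr and Cga also had SMAD2/3 in both vehicle libraries.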

How the data were processed

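Peaks, not reads, were the starting point: 12 libraries came with a list of peaks and a table that annotates them. The submitters' processing notes name Bowtie2, MACS2, HOMER and the build GRCm38 (mm10), without versions or roles. The deposited lists were called per library and give a fold (a linear ratio), −log10 p and −log10 q for each peak and a score that is 10 times the −log10 q. These values are the authors' own and describe a peak within its list. The smallest deposited −log10 q corresponds to a q-value threshold of 0.05 for SMAD2/3 and FOXL2 and of 0.1 for H3K27ac. The annotation tables were made with HOMER annotatePeaks, per the file headers, and give distances in bp from peak centre to the nearest start. Depth is unknown, so no interval is given.

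Peaks of a target sharing at least 1 bp were merged, across the 4 libraries, into regions. A place ranks peaks by −log10 q within a list. Numbers of peaks per library were tested by exact permutation (two-sided). Gene positions and promoters came from RefSeq GRCm38.p6, matched by symbol. All 10 genes are named, with every region that is treatment-specific and the strongest of each gene and target. The 10 genes and the other lists were chosen with earlier results of these data known. Counting was tested on simulated lists. Python 3.11.15, pandas 2.3.3, NumPy 2.4.6 and SciPy 1.17.1 were used. Alternatives covered distance, −log10 q, overlap, merging, list length and leaving out each library. A gene of the other mesendoderm list is not reported here and was left out of its counts.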

Additional observations from a re-analysis of the deposited data

How the results depend on the processing

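Of 90 alternatives over 13 results, 2 reversed a direction and 10 moved a count by over 1.5 times. The other 78 kept counts within 1.5 times, or left tested differences unreversed and short of the test's threshold, which so few libraries cannot pass, so they show nothing about the stability of those differences. Among them, with any peak within 100 kb of the start counted, the difference in peaks (activin minus vehicle) became 6 for SMAD2/3 (from 0), -5 for FOXL2 and -1 for H3K27ac (from 0), and leaving out a library gave -0.5 to 0.5 for H3K27ac. The difference in FOXL2 peaks (-1 peak, activin minus vehicle) became 0.5 with peaks of −log10 q of at least 5, and ran from -2.5 to 0.5 when each library was left out in turn, with 0.5 without vehicle 2. Genes with SMAD2/3 in both activin libraries numbered 3, not 0, when any peak within 100 kb of the start counted, and 3 when any region within 100 kb of the RefSeq gene counted (chosen after seeing the data). SMAD2/3 regions on FOXL2 and H3K27ac then numbered 2. A stricter overlap, stricter FOXL2 and H3K27ac peaks and the vehicle lists gave no value for that overlap, since no SMAD2/3 region was assigned to the genes. Genes with H3K27ac at the start numbered 1 within 1000 bp and 1 on the RefSeq gene (the latter chosen after seeing the data). Vehicle-only FOXL2 regions numbered 2 with lists shortened to the shortest, and 1 to 3 with a library left out. Activin-only regions with a library left out numbered 0 to 2 for FOXL2 and 0 to 2 for H3K27ac. Strong FOXL2 regions were assigned to 3 genes at a mean percentile of 80, 2 at 95 and 3 with any library left out. The share of all protein-coding genes was taken only at 90 with all libraries (9.78%). These counts thus have no background beside them and do not show whether the difference from that share is stable. With the replicate number as a block, the differences were 0 for SMAD2/3, -1 for FOXL2 and 0 for H3K27ac (exact p = 1 for each, smallest possible 0.5). The labels do not say that the numbers pair cultures.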
